A study of Mus musculus with 16 samples.

Results

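Serpins are serine protease inhibitors that trap their target with an exposed reactive loop, and the family is divided into clades by letter. In liver, hepatocytes secrete the inhibitors of plasma, among them the clade A alpha-1-antitrypsins, antithrombin, heparin cofactor II, alpha-2-antiplasmin and C1 inhibitor, together with 2 hormone carriers that no longer inhibit proteases. Clade B serpins stay inside cells and shield leukocytes and epithelia from granule proteases, while members of the later clades act on extracellular proteases, vessels and collagen. The 63 genes whose symbol is Serpin followed by a clade letter from a to i and a digit were taken out of the 21959 genes counted in MC38 liver metastases, the metastases of a mouse colon adenocarcinoma cell line. Of these, 47 had at least 1 count in some mouse, and 32 passed the filter on low counts and were tested. Another 15 had counts but were not tested, and 16 had 0 counts in all 16 mice, which allows up to 0.0091 counts per 1000000 (CPM) over the whole series.

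All animals were wild-type male C57BL/6 mice, aged 6 weeks when MC38 cells were placed in the spleen, and bulk RNA was taken from their tumor tissue. The 4 groups of 4 mice received PBS (control), SB525334, an oral inhibitor of the type I TGF-β receptor, at 20 mg/kg each day, KN046, an antibody against PD-L1 and CTLA-4, at 10 mg/kg in 2 intraperitoneal doses a week, or both drugs (combination). The model rests on 1 injected line in 1 inbred strain. The comparison of each treatment with control asked what the drug did to the metastasis, and the comparisons of the combination with each single drug, with their interaction, asked whether the effect of SB525334 depended on KN046. The comparisons with control share the same 4 control mice, so their values are given side by side.

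Total counts per mouse lay between 18368994 and 23877131. Control mice 1 and 2 resembled each other more closely than other pairs did, and so did control mice 3 and 4: the median chi-square per gene was 1.26 and 0.959 in these pairs, against at least 2.59 in the other 22 pairs within groups. Both pairs still differed by more than sampling noise, since 24.8% and 18.1% of genes lay past the 95% point. Repeat samples of 1 mouse could differ by as much, so whether each pair is 2 mice cannot be told from these values. The labels give 4 control samples and all 4 were used, but if the pairs are repeats the control n is 2 and not 4 behind every control SD and every p-value that uses control. Hepatocyte genes moved strongly with treatment. The 14 hepatocyte markers found in the files summed to 15122 to 17842 CPM in control, 617 to 1977 CPM with SB525334, 9334 to 18838 CPM with KN046 and 124 to 269 CPM in the combination. Of these 14, 13 were lower with SB525334 and in the combination and 0 with KN046. Albumin (Alb) averaged 8185, 535, 8342 and 9.52 CPM in the 4 groups, and Arg1, which macrophages also express, was the exception at 176, 119, 271 and 169 CPM. The T cell list was lower for 4 of 5 genes with KN046 and higher for 5 of 5 in the combination than with KN046. Neutrophil genes were lower for 5 of 6 with SB525334 and 1 of 6 in the combination, endothelial genes for 4 of 5 and 2 of 5, and epithelial genes for 2 of 4 and 3 of 4. The B cell list had 2 of 4 genes higher in the combination, and the fibroblast list 1 of 8 lower with KN046 and 2 of 8 lower in the combination. The macrophage and mesothelial lists had 0 genes called against control by edgeR at an adjusted p under 0.05, as had the NK cell list, of which only 1 of 3 genes was tested.

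The family's summed level was lower with SB525334 and in the combination, and what remained had a different make-up. In bulk tissue, fewer cells of a type, such as hepatocytes, and less RNA per cell cannot be told apart. The 63 genes summed to 5305 ± 1095 CPM in control (SD, n = 4), 2845 ± 169 CPM with SB525334, 4598 ± 1160 CPM with KN046 and 2435 ± 218 CPM in the combination. Clade a supplied 44.7% of these counts in control, 10.4% with SB525334, 47.9% with KN046 and 1.62% in the combination. The collagen chaperone Serpinh1 held 33.5%, 71.6%, 29.4% and 76.0% of the family's counts, although its own level did not pass the test in any comparison. Clade b held 5.26% in control and 15.01% in the combination.

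**Figure D1:**
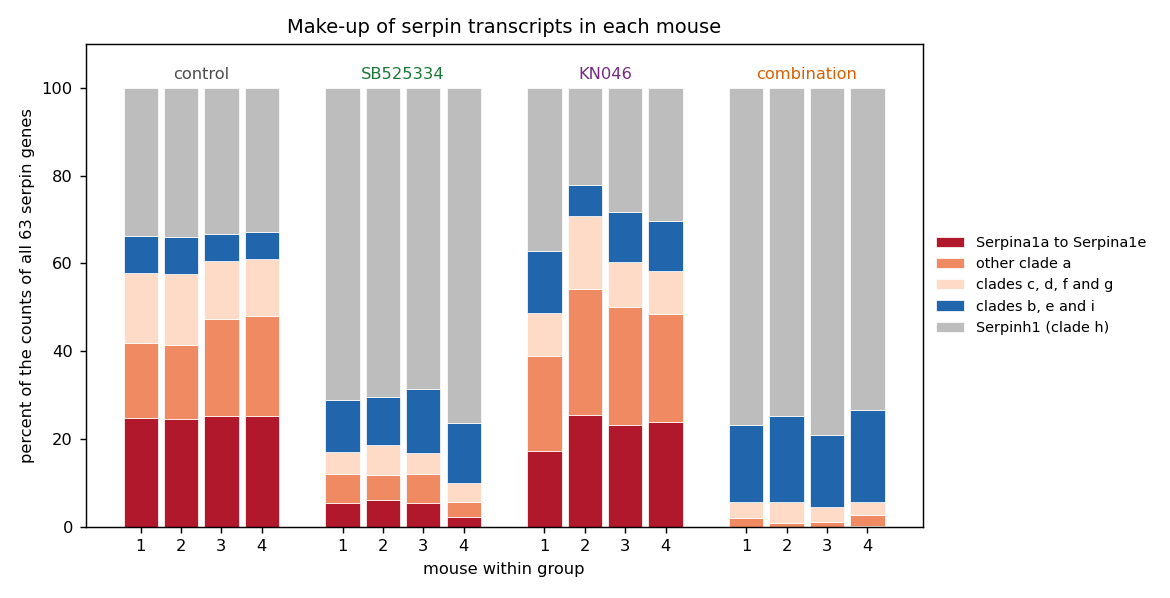
Share of the counts of all 63 serpin genes (y axis, percent) held by 5 sets of members in each of the 16 mice (x axis, by group). The alpha-1-antitrypsin genes Serpina1a to Serpina1e take 24.6% to 25.3% in the control mice and at most 0.0726% in the combination mice, where Serpinh1 takes 73.4% to 79.0%.

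A member was called where edgeR's quasi-likelihood test gave a Benjamini-Hochberg adjusted p under 0.05 over all 13968 genes tested. With SB525334, 18 of the 32 tested members were lower and 0 were higher than in control, where 9.2% of all genes tested were lower and 0.387% higher. With KN046, 5 were lower and 0 higher, against 2.34% and 1.55% of all genes. In the combination, 18 were lower and 3 higher, against 9.72% and 1.36%. That count of 3 fell to 1 with library size alone as the scaling or no filter on low counts, and to 0 with the close control pairs merged or without control mouse 1, control mouse 2 or combination mouse 3. Relative to KN046 alone the combination had 18 members lower and 6 higher (14.5% and 9.82% of all genes), and relative to SB525334 alone 15 lower and 2 higher (3.01% and 0.53%). For 14 members the effect of SB525334 was more negative in the presence of KN046 than in its absence, and for 5 it was more positive (interaction; 2.45% and 1.68% of all genes). The liver-secreted set, fixed as clades a, c, d and g plus Serpinf2, and the set of all other members, here called tumor and stroma, went separate ways. Of the 20 tested liver-secreted members, 17 were lower with SB525334 and 17 in the combination, with a median log2 fold change of -3.17 and -9.41. Of the 12 tested tumor and stroma members, 1 was lower with SB525334, and 1 was lower and 3 higher in the combination, with medians of -0.20 and 0.06. The median over all genes tested was 0.01 in the combination and -0.03 with KN046.

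**Figure D2:**
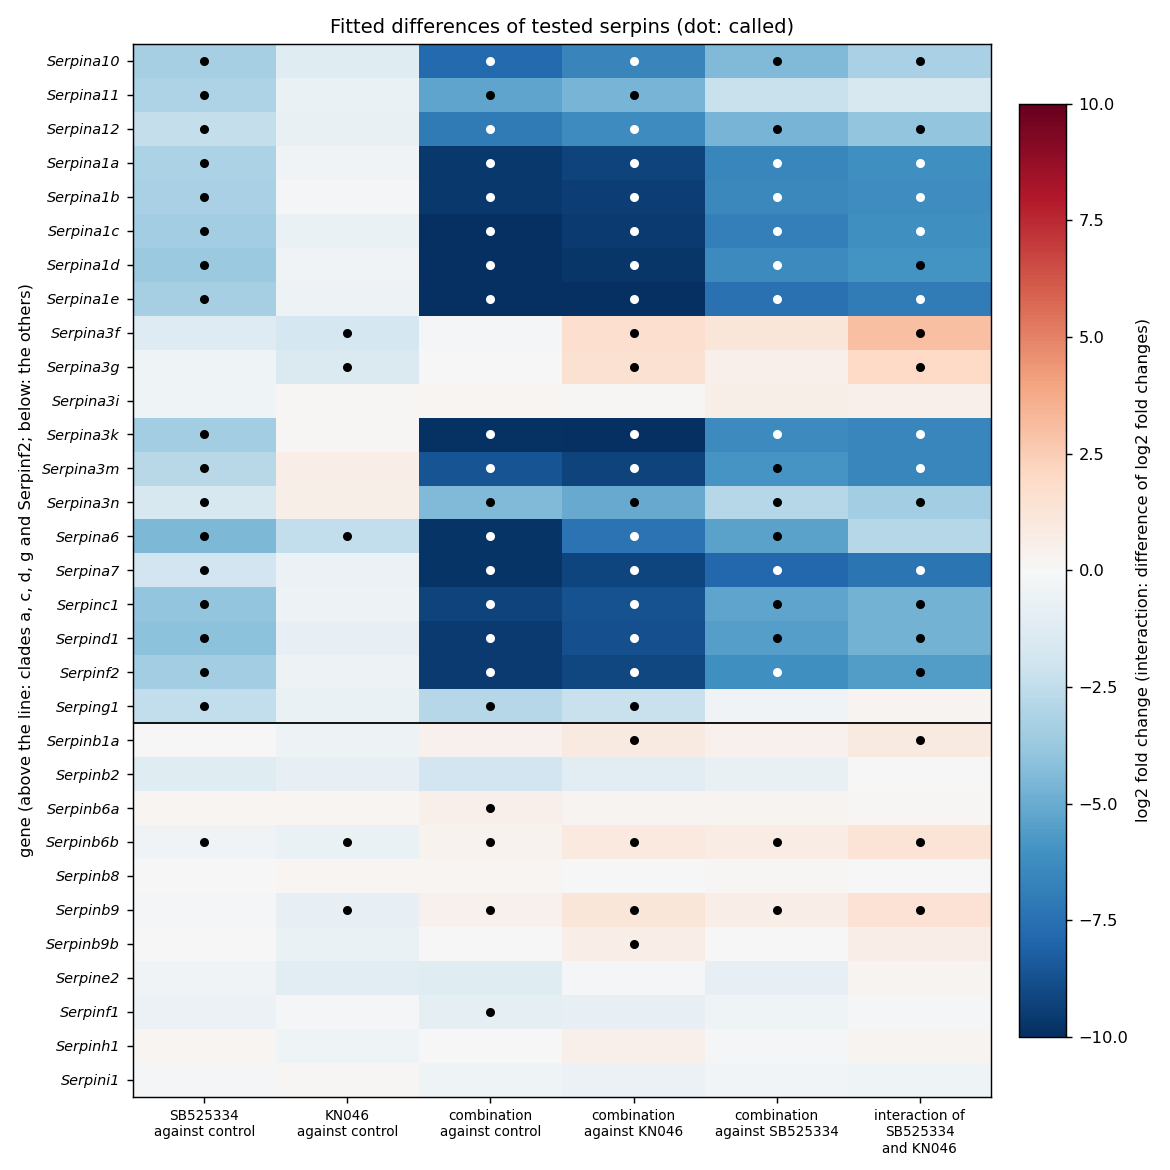
Fitted log2 fold changes (color) of 31 of the tested members (rows) in the 5 comparisons, and the difference of log2 fold changes for the interaction (last column); dots mark adjusted p under 0.05 in edgeR. Serpina1e has the lowest value against control at -10.79 in the combination, while below the line, in the tumor and stroma set, values against control lie between -1.91 and 0.48.

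Alpha-1-antitrypsin, a plasma protein, has several close gene copies in the mouse, Serpina1a to Serpina1e on chromosome 12. Together with most of clade a they lie in 1 cluster of 23 members over 800.0 kb (GRCm39, chromosome 12, 103580578 to 104380597). Their sum was 1065, 1087, 1575 and 1585 CPM in control mice 1 to 4 and 155.8, 185, 138 and 64.0 CPM in the SB525334 mice. It was 541, 1082, 1337 and 1241 CPM in the KN046 mice and 1.13, 0.497, 1.69 and 1.56 CPM in the combination mice. Control and KN046 mice overlapped, the SB525334 mice stayed below all of them, and the combination mice were lower again by far more than the spread within any group. Serpina1b fell from 477 ± 104 CPM in control (SD, n = 4) to 51.8 ± 20.1 with SB525334 and 0.590 ± 0.249 in the combination, a log2 fold change of -3.20 ± 0.30 (SE) and -9.63 ± 0.44 (edgeR adjusted p = 2.1e-06 and 5.2e-10). Serpina1e had the lowest remainder among the 4 copies that kept counts, at 0.055% of control in the combination. Serpina1c, the least expressed copy at 7.42 ± 0.593 CPM in control, had 0 counts in all combination mice and was at least 189.9-fold lower there, computed against a floor of 3 counts over the group. The 5 copies changed together, with log2 fold changes between -3.74 and -3.14 with SB525334 and between -0.69 and -0.19, none called, with KN046. Reads shared by near-identical copies make the split between them uncertain. Of the 100-base windows of Serpina1c, 34.5% also occur in another serpin gene, as do 18.9% for Serpina1a and 16.4% for Serpina1d. The shares are 8.17% for Serpina1b and 7.29% for Serpina1e. Serpina1b and Serpina1d overlap on the same strand.

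The promoters of these copies, which moved together, are shown because they are nearly one sequence. They were taken from RefSeq on GRCm38.p6, from 100 bases before to 20 bases after the annotated start, and read 5′ to 3′ on the gene's strand, which is the minus strand for all 5. Capitals mark GTTAAT, the core of the element that hepatocyte nuclear factor 1 binds.
Serpina1a: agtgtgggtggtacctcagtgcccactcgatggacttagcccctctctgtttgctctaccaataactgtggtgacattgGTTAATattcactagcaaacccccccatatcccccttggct
Serpina1b: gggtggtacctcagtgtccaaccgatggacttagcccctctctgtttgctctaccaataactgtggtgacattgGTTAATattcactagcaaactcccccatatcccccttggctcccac
Serpina1c: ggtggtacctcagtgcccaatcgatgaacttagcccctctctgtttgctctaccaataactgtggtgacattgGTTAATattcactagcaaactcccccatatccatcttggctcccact
Serpina1d: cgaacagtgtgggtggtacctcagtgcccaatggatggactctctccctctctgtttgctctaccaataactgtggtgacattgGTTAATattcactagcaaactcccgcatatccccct
Serpina1e: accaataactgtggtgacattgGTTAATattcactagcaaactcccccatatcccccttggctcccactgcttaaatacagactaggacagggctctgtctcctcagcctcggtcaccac
Their regions are chr12:103863600-103863719, chr12:103738170-103738289, chr12:103904931-103905050, chr12:103773614-103773733 and chr12:103956878-103956997. The stretch around GTTAAT recurs in all 5, and its position before the start, from -78 in Serpina1e to -16 in Serpina1d, follows where each copy's start is annotated. Searched on both strands of the 300-base windows (250 bases before to 50 after the start), GTTAAT was found for 6 of the 15 tested liver-secreted members with a listed promoter (40.0%) and 1 of the 10 tested tumor and stroma members (10.0%), beside 8.24% of all 27025 genes with a promoter. These 6 were the 5 near-identical Serpina1 copies and Serpina7. Serpinc1, Serpind1, Serpinf2, Serpina11 and Serpina12, which were also lower in the combination than in control, had no match. CAGAC, the core to which SMAD proteins bind, was found for 13 of 15 (86.7%) and 5 of 10, beside 53.2% of all genes. The 15 include the 5 near-identical Serpina1 copies, so they are not 15 independent sequences, and the share was not tested. Of the 63 members, 54 matched the promoter table. A match describes letters in a window only.

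Serpina3k, Serpina3m and Serpina3n are mouse relatives of alpha-1-antichymotrypsin, an acute-phase inhibitor of chymotrypsin-like proteases. Serpina3k, also called contrapsin, was the most abundant clade a gene in counts, with 446, 452, 985 and 1012 CPM in the control mice and 80.7, 90.3, 74.6 and 14.8 CPM in the SB525334 mice. It kept 463, 799, 1070 and 833 CPM in the KN046 mice and 0.411, 1.21, 0.928 and 0.566 CPM in the combination mice. The control pairs 1 and 2 and 3 and 4 stood apart for this gene, yet all control values lay above all SB525334 and combination values. The log2 fold change was -3.47 ± 0.48 with SB525334 and -9.87 ± 0.69 in the combination (edgeR adjusted p = 8.6e-05 and 2.9e-08). Serpina3m, which overlaps Serpina3k on the same strand so that their reads may be split, behaved alike, at -2.77 ± 0.40 and -8.63 ± 0.66.

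Serpina3n was the exception in degree. It had 134, 136, 217 and 223 CPM in the control mice, 71.6, 47.1, 68.3 and 52.9 CPM in the SB525334 mice, 164, 264, 331 and 314 CPM in the KN046 mice and 8.63, 7.61, 6.66 and 10.0 CPM in the combination mice. The groups did not overlap except control with KN046, and 33.8% and 4.64% of the control mean remained with SB525334 and in the combination, against 8.997% and 0.108% for Serpina3k. The log2 fold change was -1.56 ± 0.22 and -4.42 ± 0.26 (edgeR adjusted p = 7.5e-05 and 2.0e-09), and 0.60 ± 0.22 with KN046 (adjusted p = 0.12).

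The hormone carriers and smaller clade a members followed. Serpina6, the corticosteroid-binding globulin, had 17.6, 21.7, 15.98 and 14.5 CPM in the control mice and 1.08, 1.55, 0.387 and 0.0431 CPM in the SB525334 mice. It had 0.799, 4.04, 2.57 and 5.04 CPM in the KN046 mice and a single count over all combination mice, 0.0738% of the control level with an exact counting interval of 0.00187% to 0.412%. All KN046 mice were below all control mice (log2 fold change -2.48 ± 0.54, edgeR adjusted p = 0.026), a call lost when any 1 control mouse, KN046 mouse 1 or KN046 mouse 3 was left out (adjusted p between 0.0554 and 0.0699). Serpina7, the thyroxine-binding globulin on chromosome X, had 13.2, 10.4, 22.5 and 21.1 CPM in control, 6.96, 3.26, 4.17 and 3.40 CPM with SB525334 and 1 count in the combination, 0.0785% of control with an interval of 0.00198% to 0.438%. With a log2 fold change of -1.92 ± 0.34 it lost less with SB525334 than the Serpina1 copies did, though this difference itself was not tested. Serpina10, the protein Z-dependent inhibitor of activated factor X, had log2 fold changes of -3.35 ± 0.42 and -7.80 ± 0.60 with SB525334 and in the combination. Serpina12, the adipokine vaspin, had -2.38 ± 0.47 and -7.04 ± 0.73. Its 2 counts left in the combination were 0.617% of control, with an interval of 0.0745% to 2.25%. Serpina11 had -3.06 ± 0.61 and -5.29 ± 0.76. The Serpina7 promoter (chrX:139085200-139085319, minus strand), at 1 of its listed starts, holds GTTAAT 74 bases before the start, while that of Serpina3n (chr12:104406608-104406727, plus strand) has none in its 300-base window.
Serpina7: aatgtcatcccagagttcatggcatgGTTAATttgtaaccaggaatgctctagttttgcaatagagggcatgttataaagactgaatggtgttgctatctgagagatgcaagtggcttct
Serpina3n: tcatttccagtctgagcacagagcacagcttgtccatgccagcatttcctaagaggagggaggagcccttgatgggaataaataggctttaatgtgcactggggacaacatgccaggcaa

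Antithrombin (Serpinc1), heparin cofactor II (Serpind1), alpha-2-antiplasmin (Serpinf2) and C1 inhibitor (Serping1) control thrombin, plasmin and the first complement component. Serpinc1 had 242, 250, 252 and 237 CPM in the control mice, 20.0, 28.5, 10.5 and 3.06 CPM in the SB525334 mice, 84.9, 233, 200.2 and 164 CPM in the KN046 mice and 0.565, 0.276, 0.437 and 0.330 CPM in the combination mice. KN046 mouse 1 was the lowest of its group for this gene and for all 17 liver-secreted members that were lower in the combination, and SB525334 mouse 4 was the lowest of its group for 14 of the 17. The log2 fold change was -3.98 ± 0.48 with SB525334 and -9.23 ± 0.69 in the combination (edgeR adjusted p = 2.3e-05 and 5.4e-08). Serpind1 fell from 54.9 ± 1.64 CPM to 3.21 ± 1.96 and 0.0649 ± 0.0255 CPM (SD, n = 4), and Serpinf2 from 125.9 ± 6.94 CPM to 11.4 ± 5.51 and 0.157 ± 0.0974 CPM. With KN046 they kept 58.2% and 69.0% of their control mean and were not called.

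Of the 17 liver-secreted members that were lower in the combination than in control, Serping1 and Serpina11 were the 2 not called lower in the combination than with SB525334. The call of Serpina6 in that comparison (-5.35 ± 1.24, edgeR adjusted p = 0.016) was lost without SB525334 mouse 2 or any 1 combination mouse (adjusted p between 0.0582 and 0.0699). Serping1 had 174, 176, 235 and 236 CPM in the control mice, 41.1, 34.0, 30.7 and 40.9 CPM in the SB525334 mice, 68.6, 175.9, 146 and 126 CPM in the KN046 mice and 32.7, 19.4, 22.3 and 38.3 CPM in the combination mice. Its log2 fold change was -2.48 ± 0.26 with SB525334 and -2.86 ± 0.26 in the combination (edgeR adjusted p = 3.7e-06 and 2.8e-07). The 2 groups overlapped, their difference was -0.38 ± 0.25 (adjusted p = 0.82), and the interaction was 0.29 ± 0.35 (adjusted p = 0.71). Among the 20 tested liver-secreted members, 15 were lower in the combination than with SB525334, and for 14 the interaction was negative.

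**Figure D3:**
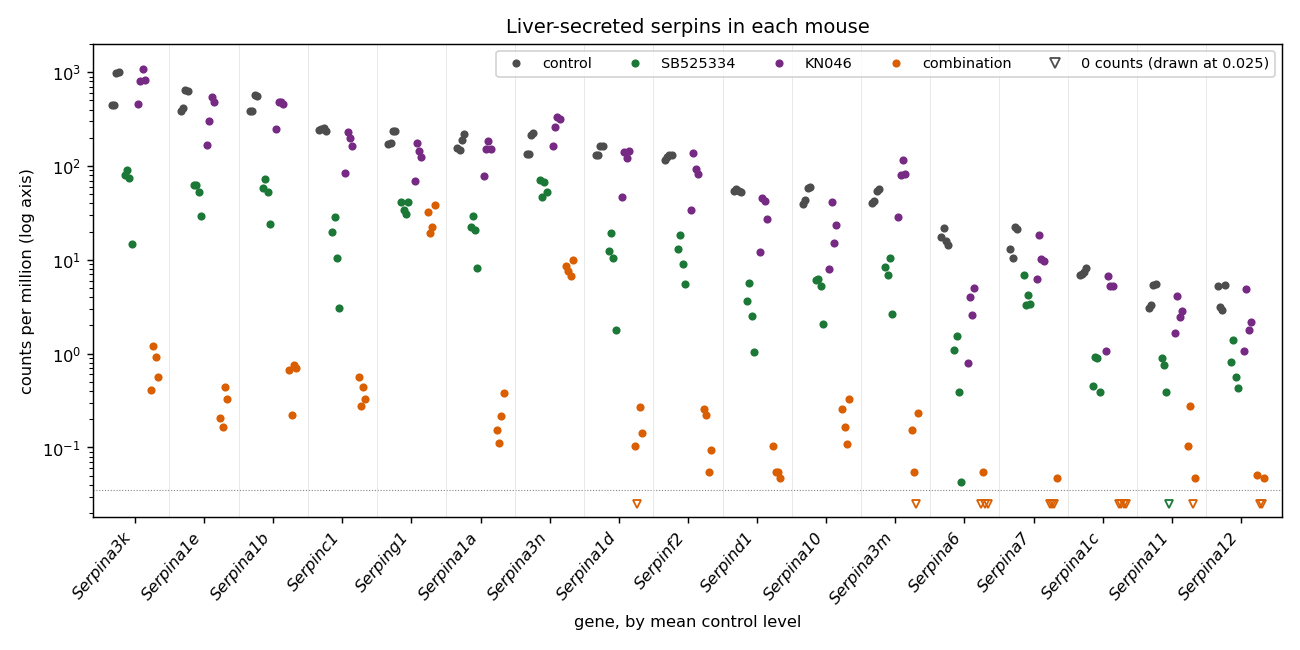
CPM in each mouse (y axis, log scale) of the 17 liver-secreted members lower in the combination than in control (x axis, by mean control level); triangles mark mice with 0 counts. Combination mice lie at or below 1.21 CPM for all but Serping1 (19.4 to 38.3 CPM) and Serpina3n (6.66 to 10.0 CPM).

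Because hepatocyte genes fell with these members, some were also set against them in the same mouse. These were the summed Serpina1 copies, Serpina3k, Serpina3n, Serpinc1, Serpind1, Serpinf2 and Serping1, and no other member was tested in this way. The log2 ratio of CPM to the summed hepatocyte list was tested by exact permutation of the mice (two-sided, 21 tests in the family, Benjamini-Hochberg adjusted). The smallest p that 4 against 4 mice allow is 0.0286. Serpina3n lost less than the list: its ratio was higher by 2.13 with SB525334, by 0.77 with KN046 and by 2.21 in the combination (exact p = 0.0286 and adjusted p = 0.0462 for each). Serping1 was likewise higher by 1.20 with SB525334 and 3.65 in the combination, and lower by 0.55 with KN046 (exact p = 0.0286, adjusted p = 0.0462). Both kept these directions against Alb alone, where Serpina3n was higher by 2.698 and 5.37 and Serping1 by 1.77 and 6.81, and against the list without Arg1. With SB525334 the summed Serpina1 copies were higher by 0.30 relative to the list and 0.87 relative to Alb. With KN046, Serpinc1 differed by -0.44 and -0.61 and Serpind1 by -0.76 and -0.93, relative to the list and to Alb. Each had exact permutation p = 0.0286 and adjusted p = 0.0462. No other ratio tested here passed the threshold relative to both with a single drug. For the tested items other than Serpina3n and Serping1, the sign in the combination depended on the reference. The log2 difference of the summed Serpina1 copies was -3.10 relative to the list, most of whose remainder there is Arg1, but 0.06 relative to Alb (exact permutation p = 0.91). Serpinc1 and Serpinf2 passed with opposite signs, at -1.57 and -1.07 relative to the list and 1.59 and 2.09 relative to Alb. All 4 values had exact permutation p = 0.0286 and adjusted p = 0.0462. The Serpina1 copies and Serpina3k passed relative to the list but not to Alb, and Serpind1 relative to Alb but not to the list. For members below the pseudocount of 0.5 CPM the size depended on it as well: relative to the list in the combination, Serpind1 differed by -0.09 (exact permutation p = 0.8, adjusted p = 0.84) with 0.5 CPM and by -2.39 (exact permutation p = 0.0286, adjusted p = 0.04) with 0.05 CPM.

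Serpina3f and Serpina3g share the Serpina3 cluster but are known from leukocytes rather than hepatocytes, Serpina3g being an inhibitor of cathepsins in activated T cells and macrophages. Serpina3g had 12.2, 11.6, 9.79 and 7.79 CPM in the control mice, 8.50, 5.49, 6.33 and 9.82 CPM with SB525334, 1.65, 4.96, 3.02 and 5.72 CPM with KN046 and 12.4, 5.74, 9.93 and 15.3 CPM in the combination. KN046 mice were below all control mice, and combination mice covered the control range. It was lower with KN046 than in control (-1.43 ± 0.34, edgeR adjusted p = 0.033) and higher in the combination than with KN046 (1.49 ± 0.34, adjusted p = 0.0042). Serpina3f had 22.7, 22.2, 12.0 and 11.7 CPM in control, 6.74, 5.65, 3.61 and 11.4 CPM with SB525334, 2.19, 4.86, 6.65 and 6.29 CPM with KN046 and 22.1, 5.41, 9.39 and 25.9 CPM in the combination. It was lower with KN046 than in control at the threshold (-1.78 ± 0.48, edgeR adjusted p = 0.049). It was higher in the combination than with KN046 by 1.65 ± 0.48 (adjusted p = 0.020), a call lost without KN046 mouse 1 or without combination mouse 4 (adjusted p between 0.0613 and 0.0688). The interaction was positive for both genes, 1.95 ± 0.47 for Serpina3g and 2.98 ± 0.67 for Serpina3f (adjusted p = 0.024 and 0.017). Leaving out any 1 control mouse, KN046 mouse 1 or KN046 mouse 3 ended the KN046 calls of both (adjusted p up to 0.0966 for Serpina3g and 0.156 for Serpina3f), as did KN046 mouse 4 for Serpina3f, and the Serpina3g interaction was lost without control mouse 1, SB525334 mouse 2 or 3, KN046 mouse 3 or combination mouse 4 (adjusted p up to 0.07). Of 10 alternatives without a left-out mouse, the KN046 call of Serpina3f passed in 4 (edgeR adjusted p 0.0508 to 0.255 where lost). It was lost with upper-quartile scaling, library size alone, no filter, the mice of the comparison alone, the replicate block or merged control pairs. That of Serpina3g passed in 7 (0.0538 to 0.216 where lost). Serpina3i, below 1 CPM in every group, was not called anywhere.

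Clade b members inhibit granule and lysosomal proteases inside the cell. Serpinb9, the inhibitor of granzyme B, had 27.3, 29.8, 28.2 and 29.1 CPM in the control mice and 28.8, 22.9, 21.3 and 26.4 CPM in the SB525334 mice. It had 14.3, 20.9, 14.9 and 16.4 CPM in the KN046 mice and 35.8, 34.4, 37.7 and 46.9 CPM in the combination mice. KN046 mice were the lowest and combination mice the highest, with no overlap between these 2 groups and any other. The log2 fold change was -0.79 ± 0.14 with KN046 (edgeR adjusted p = 0.014) and 0.44 ± 0.14 in the combination (adjusted p = 0.047), and the combination exceeded KN046 by 1.22 ± 0.14 (adjusted p = 2.8e-06). Serpinb6b, a relative of the cathepsin G inhibitor, had 42.0, 38.8, 45.7 and 42.8 CPM in control, 29.0, 36.1, 34.3 and 30.4 CPM with SB525334, 25.6, 30.0, 28.1 and 25.4 CPM with KN046 and 49.7, 53.7, 54.7 and 54.6 CPM in the combination. Each drug alone lowered it, by 0.38 ± 0.10 and 0.63 ± 0.10 on the log2 scale (edgeR adjusted p = 0.014 and 0.0093). In the combination it was higher than in control (0.33 ± 0.10, adjusted p = 0.035) and higher than with either drug (0.96 ± 0.10 against KN046 and 0.71 ± 0.10 against SB525334). It was the only member called in all 6 comparisons. The Serpinb9 rise over control was lost without any 1 control mouse or combination mouse 3 or 4 (adjusted p between 0.0697 and 0.164), and the Serpinb6b rise without control mouse 1, 2 or 4 or combination mouse 2, 3 or 4 (0.0529 to 0.14). The Serpinb9 rise was also lost with upper-quartile scaling, library size alone, no filter on low counts, a filter at a mean of 1 CPM the replicate block or merged control pairs, and passed in 4 of 10 alternatives without a left-out mouse (0.0532 to 0.226 where lost). The Serpinb6b rise was also lost with library size alone, no filter or merged control pairs (0.0527 to 0.186) and passed in 7 of 10. The Serpinb9 fall was lost without KN046 mouse 1 (0.0575), and the Serpinb6b fall with SB525334 without control mouse 3 or SB525334 mouse 1 or 4 (0.0579 to 0.0729). Serpinb6b overlaps Serpinb1c on the opposite strand, and since strand use in the counting is not given in the sources used here, reads of the pair could not be told apart. The same holds for the other called members that overlap a counted gene on the opposite strand: Serpinb1a with Wrnip1, Serpinb6a with Nqo2 and Ripk1, Serpinf1 with Smyd4, Serpinc1 with Zbtb37, Serpind1 with Pi4ka, Serpina10 with Ppp4r4 and Serpina7 with 4930513O06Rik.

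Serpinb1a, an inhibitor of neutrophil elastase and cathepsin G, had 14.0, 13.3, 17.1 and 17.1 CPM in control and 18.8, 20.4, 21.5 and 23.9 CPM in the combination, but was called only against KN046 (11.1 ± 1.83 CPM, SD, n = 4), by 0.93 ± 0.16 (edgeR adjusted p = 0.00042), and in the interaction (0.91 ± 0.23, adjusted p = 0.030). Serpinb6a, the widely expressed cathepsin G inhibitor, rose from 164 ± 28.7 CPM in control to 229 ± 44.1 CPM in the combination (0.48 ± 0.14, edgeR adjusted p = 0.036). Serpinb9b was higher in the combination than with KN046 (0.70 ± 0.23, edgeR adjusted p = 0.036). The Serpinb6a call was lost without control mouse 1 or 2 or combination mouse 2 or 3 (adjusted p up to 0.146), the Serpinb9b call without KN046 mouse 1, 2 or 4 or combination mouse 4 (up to 0.14), and the Serpinb1a interaction in 8 of 16 fits with 1 mouse left out (up to 0.0786), those without control mouse 3 or 4, SB525334 mouse 2, 3 or 4, KN046 mouse 3 or combination mouse 3 or 4. Serpinb8, at 12.7 to 14.4 CPM on average in the 4 groups, and Serpinb2, plasminogen activator inhibitor 2, at 1.08 to 4.03 CPM, were not called in any comparison. Serpinb9 and Serpinb6b also had a positive interaction, 1.42 ± 0.19 and 1.35 ± 0.14 (edgeR adjusted p = 0.00028 and 1.7e-05).

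T cell markers, among others, moved with these members. Their sum was 24.7 to 31.5 CPM in control, 13.8 to 24.8 CPM with SB525334, 5.64 to 16.7 CPM with KN046 and 20.3 to 42.0 CPM in the combination, and Gzmb, the protease that Serpinb9 inhibits, averaged 10.3, 5.27, 2.44 and 16.3 CPM. Gzmb was lower with KN046 than in control (log2 fold change -2.07 ± 0.48, edgeR adjusted p = 0.031) and higher in the combination than with KN046 (2.73 ± 0.49, adjusted p = 0.00058). Markers of other cell types moved in the same comparisons: in the combination against KN046, 3 of 5 macrophage genes (Cd68, C1qa and C1qb) were higher, as were 3 of 8 fibroblast genes with 1 lower, and in the interaction 4 of 6 neutrophil genes were positive. The summed macrophage list was 384 to 773 CPM with KN046 and 674 to 774 CPM in the combination. The neutrophil list was 97.8 to 115.2 CPM in control and 7.37 to 17.5 CPM with SB525334. It was 15.4 to 23.7 CPM with KN046 and 4.59 to 144.7 CPM in the combination. With KN046, 0 of its 6 genes were called against control, at a median log2 fold change of -2.56. The part of the number of any of these cells in the serpin values was not tested. Like those of Serpinc1, Serpind1 and Serpinf2, the promoters of Serpinb9 (chr13:33004441-33004560) and Serpina3g (chr12:104236047-104236166) hold no GTTAAT in their 300-base windows. Shown are Serpinb9 and Serpina3g, both on the plus strand of GRCm38.p6.
Serpinb9: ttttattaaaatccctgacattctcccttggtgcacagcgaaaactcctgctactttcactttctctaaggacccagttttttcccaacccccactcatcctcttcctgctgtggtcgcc
Serpina3g: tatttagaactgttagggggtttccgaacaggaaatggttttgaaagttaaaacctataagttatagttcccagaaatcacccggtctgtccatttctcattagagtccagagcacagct
The calls against control of the clade b members, of Serpina3f and Serpina3g and of Serpina6 with KN046 depended on how the controls were counted. With the close control pairs merged into 2 values, none of the 5 KN046 calls passed (adjusted p between 0.13 and 0.255), nor did those of Serpinb6b with SB525334 (0.087) or of Serpinb6a, Serpinb6b and Serpinb9 in the combination (0.151, 0.186 and 0.226), while those of Serpinb9, Serpinb6b, Serpinb1a, Serpina3f and Serpina3g between the combination and KN046 passed. The interactions of Serpina3f, Serpina3g and Serpinb1a were lost with it as well (0.0665, 0.0802 and 0.0987), and so was the Serpinb9b call against KN046 (0.0526). Calls of genes outside the family, such as Gzmb and the T cell markers, were not checked with the pairs merged.

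**Figure D4:**
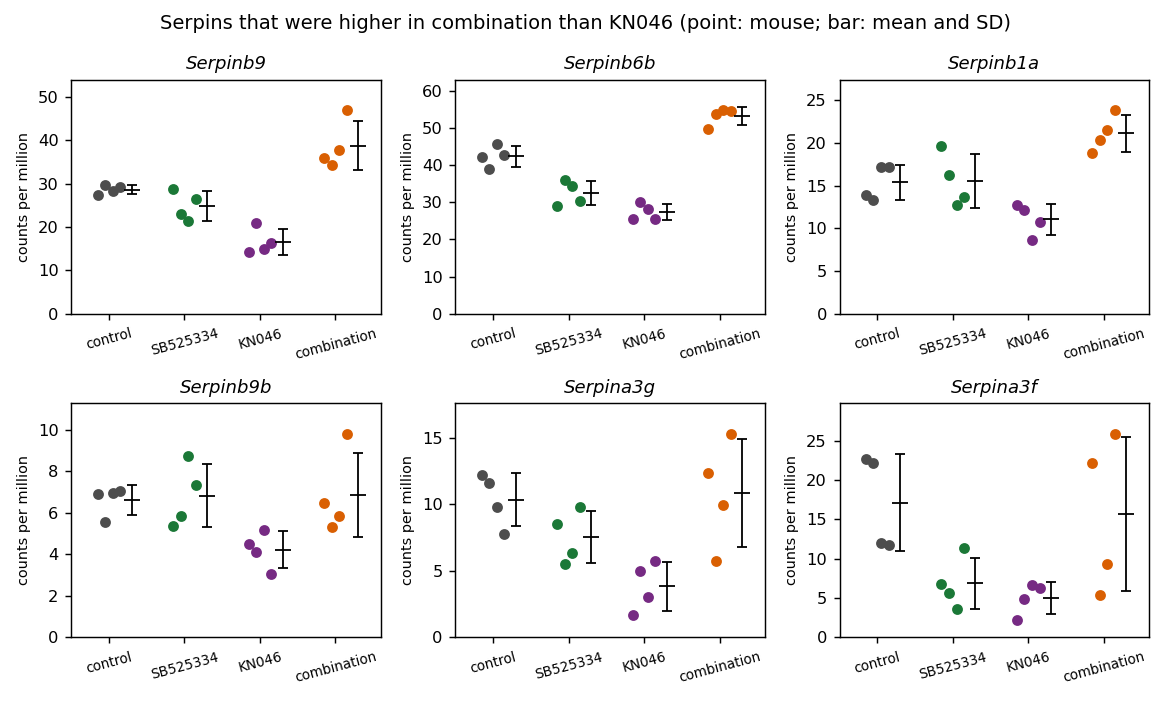
CPM in each mouse (y axis, from 0) of the 6 members that were higher in the combination than with KN046, by group (x axis), with the mean and SD. For Serpinb9 the KN046 mice lie between 14.3 and 20.9 CPM and the combination mice between 34.4 and 46.9 CPM.

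Serpinh1, also known as HSP47, is the endoplasmic reticulum chaperone of collagens and the most abundant serpin per kilobase of exon in control, at 253 CPM per kb against 189 for Serpina1e. It had 1447, 1506, 2078 and 2053 CPM in the control mice, 2070, 2106, 1785 and 2198 CPM with SB525334, 1161, 942, 1627 and 1579 CPM with KN046 and 1839, 1937, 2061 and 1572 CPM in the combination. All groups overlapped control, and no comparison was called, with log2 fold changes of 0.20 ± 0.17, -0.42 ± 0.17 and 0.06 ± 0.17 against control (edgeR adjusted p = 0.61, 0.17 and 0.86). Its clients Col1a1 and Col1a2 averaged 1310.4 and 1164 CPM in control and 867 and 786 CPM in the combination, where Col1a2 was lower (-0.57 ± 0.14, adjusted p = 0.012) and Col1a1 was not called (-0.60 ± 0.33, adjusted p = 0.31). Serpinf1, the antiangiogenic factor PEDF, had 97.7, 99.0, 152 and 157 CPM in control, 69.7, 113.1, 74.0 and 76.9 CPM with SB525334, 103, 118, 103 and 121 CPM with KN046 and 55.6, 104, 67.7 and 25.5 CPM in the combination. Only 1 combination mouse reached the control range, and the log2 fold change of -1.003 ± 0.30 was called (edgeR adjusted p = 0.041), but not with the control pairs merged (adjusted p = 0.163), nor without control mouse 3 or 4 or combination mouse 1 or 3 (0.0796 to 0.104). Serpinf1 lies next to Serpinf2 on chromosome 11, in a stretch of 31.0 kb, and kept 66.0% and 49.9% of its control mean with SB525334 and in the combination, where Serpinf2 kept 9.09% and 0.124%. Serpini1, neuroserpin, stayed between 1.07 and 1.62 CPM on average and was not called. Serpine2, protease nexin 1, averaged 13.5, 10.6, 6.35 and 5.90 CPM and was not called. Serpine3 had 12 counts in all 16 mice and was not tested.

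**Figure D5:**
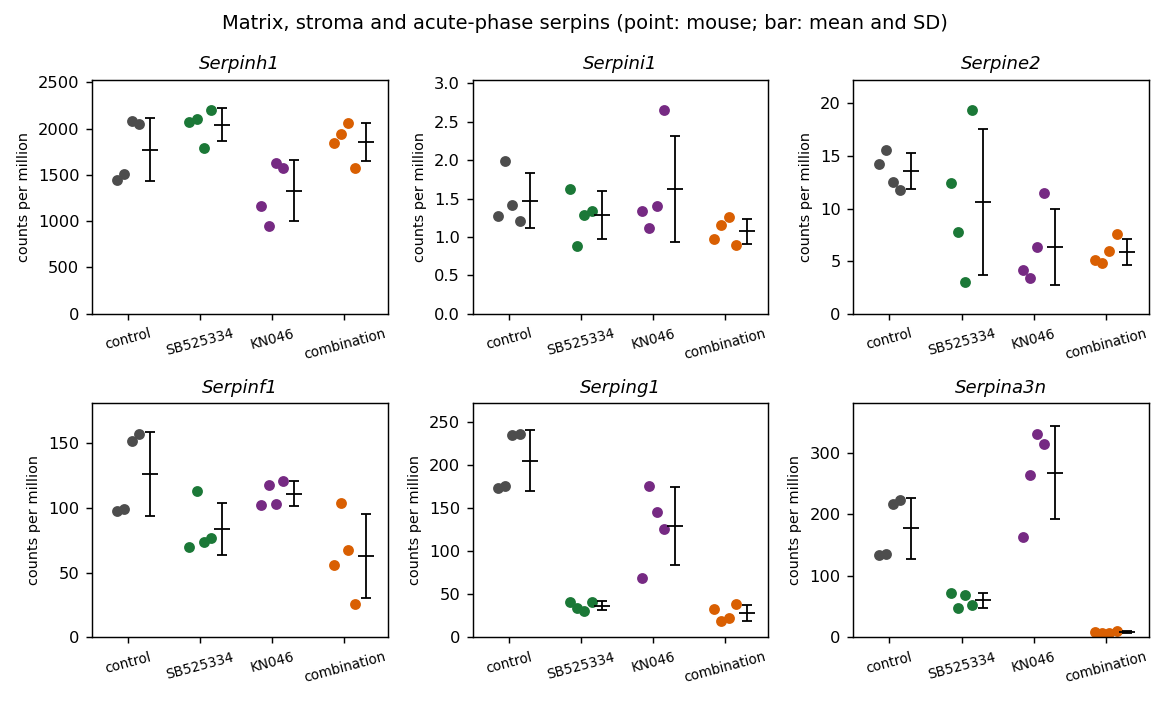
CPM in each mouse (y axis, from 0) of 4 tumor and stroma members and of the liver-secreted Serping1 and Serpina3n, by group (x axis), with the mean and SD. Serpinh1 overlaps between all groups except SB525334 and KN046, Serpine2 spans 3.06 to 19.3 CPM with SB525334, and Serping1 falls alike with SB525334 and in the combination.

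Proteases, cofactors, receptors and clients that serpins act on or with were read from a list of 38 genes, of which 36 were in the files and 32 were tested. Against control, 16 were lower with SB525334, 5 with KN046 and 17 in the combination, and 0 were higher in each. Of all genes tested, 9.2%, 2.34% and 9.72% were lower and 0.387%, 1.55% and 1.36% were higher. The targets made in liver moved with their inhibitors: prothrombin (F2) averaged 249.6, 20.7, 181 and 0.327 CPM in the 4 groups and plasminogen (Plg) 269, 16.4, 202 and 0.174 CPM. Vitronectin (Vtn), an adhesive plasma protein, averaged 438, 41.2, 302 and 3.86 CPM. The plasminogen activators did not follow: Plat averaged 133, 129.9, 165 and 128 CPM and was not called, and Plau averaged 25.1, 25.1, 15.9 and 37.7 CPM, with the combination higher than KN046 by 1.24 ± 0.21 (edgeR adjusted p = 0.00032). The urokinase receptor Plaur (82.3, 81.7, 81.6 and 97.4 CPM) and Lrp1, which clears serpin complexes (1539.6, 1443, 1832 and 1406 CPM), were not called. Elane, the neutrophil elastase that Serpinb1a inhibits, averaged 8.69 CPM in control, 0.0328 with SB525334, 0.204 with KN046 and 1.23 in the combination. It was lower than control in all 3 (edgeR adjusted p = 0.0002, 0.016 and 0.032). C1s1, a target of C1 inhibitor, fell by 0.85 ± 0.18 with SB525334 and by 0.76 ± 0.18 in the combination on the log2 scale (edgeR adjusted p = 0.0027 and 0.0057). Of the list, 4 genes were higher and 12 lower in the combination than with KN046 (9.82% and 14.5% of all genes). Relative to SB525334, 1 was higher and 9 lower (0.53% and 3.01%). The interaction was positive for 7 and negative for 6 (1.68% and 2.45%).

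The 31 members that were not tested were all from clades a, b, e and i. Those with counts were Serpina3a, Serpina3b, Serpina3c, Serpina5, Serpina9, Serpinb10, Serpinb11, Serpinb12, Serpinb1b, Serpinb1c, Serpinb5, Serpinb6c, Serpinb7, Serpinb9g and Serpine3. Those at 0 in every mouse were Serpina16, Serpina1f, Serpina3j, Serpinb13, the 4 Serpinb3 genes, Serpinb6d, Serpinb6e, Serpinb9c, Serpinb9d, Serpinb9e, Serpinb9f, Serpinb9h and Serpini2. The clusters of clade b on chromosome 13 (1161 kb, 16 members) and chromosome 1 (750.4 kb, 12 members) thus had 5 and 2 tested members, against 15 of 23 in the clade a cluster.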

How the data were processed

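RNA-Seq of tumor tissue came from 16 mice with MC38 liver metastases, 4 per group. Per the labels and methods, the authors trimmed reads with Cutadapt (v2.7), aligned them to GRCm39 with HISAT2 (v2.2.1) and deposited HTSeq (v2.0.4) counts per gene. The settings for strand and multiply aligned reads are not given in the sources used here. The deposited normalized values, taken as a score, are counts divided by a size factor from the authors' DESeq2 (v1.38.3) and rounded: 99.96% lay within 1 of that quotient.

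Counts were tested with edgeR 4.0.16 in R 4.3.3 (TMM, filterByExpr with a minimum count of 10, robust quasi-likelihood fit over all 16 mice), adjusted over 13968 genes with a threshold of 0.05. The common biological coefficient of variation was 20.1%. On simulated counts for the combination against control over 13968 genes, 177 of 197 tested genes changed 4-fold were called. So were 10 unchanged genes, and 0 were called in a comparison without change. The simulated mice were drawn independently, without close control pairs. CPM used TMM-scaled totals. Counts of 3 or fewer over a group are given with exact 95% intervals, which cover counting error only. Symbols came from GENCODE M39 for 21770 of the 21959 identifiers. The 100-base windows were compared among its transcripts of serpin genes alone, so windows shared with other genes were not counted. Nothing says that mice were housed or sampled apart, so p-values measure the spread between these samples.

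Named with values were all counted members of clades c to i, members of clades a and b with at least 1 CPM in a group, and others called; 1 tested member that enters the counts and sums is not reported here. Members, marker lists (hepatocyte, fibroblast, endothelial, macrophage, T, NK and B cell, neutrophil, epithelial and mesothelial) and the partner list were chosen with earlier results of these data known. Alternatives were other scalings and filters, DESeq2 1.42.0, limma 3.58.1 on the normalized values with a pseudocount of 1, the mice of a comparison alone, a replicate block, merged control pairs and 1 mouse left out. Ratios used a pseudocount of 0.5 CPM. The list without Arg1 and a pseudocount of 0.05 CPM, with the list or with Alb, were chosen after seeing the data.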

Additional observations from a re-analysis of the deposited data

Results flagged for a closer look

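The effect of SB525334 in the presence of KN046 differed from its effect alone for 19 members (edgeR interaction, adjusted p under 0.05). It was more negative for 14 members of the liver-secreted set, with interaction log2 values of -6.15 for Serpina1a, -6.24 for Serpina1b, -6.10 for Serpina1c, -5.98 for Serpina1d and -7.01 for Serpina1e. The values were -6.52 for Serpina3k, -6.53 for Serpina3m, -3.46 for Serpina3n and -7.28 for Serpina7. They were -3.27 for Serpina10, -3.92 for Serpina12, -4.73 for Serpinc1, -4.73 for Serpind1 and -5.61 for Serpinf2. In Serpina7 SB525334 alone gave -1.92 and, with KN046, -9.19. For these genes except Serpina3n, the combination level is near 0 counts, so an additive effect on the log2 scale is measured from few reads. The calls of Serpina10, Serpina12 and Serpina1c were lost with the control pairs merged (adjusted p = 0.0792, 0.0701 and 0.054). That of Serpina10 was also lost without combination mouse 1, 2 or 3 (up to 0.062), and that of Serpina12 without SB525334 mouse 2 or combination mouse 2, 3 or 4 (up to 0.0651).

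It was more positive for Serpina3f (2.98) and Serpina3g (1.95), which as clade a genes count in the liver-secreted set too, and for Serpinb1a (0.91), Serpinb6b (1.35) and Serpinb9 (1.42). For Serpinb6b the effect changed direction, from -0.38 alone to 0.96 with KN046, both called.

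Single mice stood far from the other 3 of their group in 7 of 128 groups tested, where chance gives about 1 in 20, or 6.4. Serpina1b was 247.1 CPM in KN046 mouse 1 (456.9 to 484 in the others), and Serpinb2 was 3.53 CPM in combination mouse 2 (0.109 to 0.359 in the others). Serpinb9b was 5.54 CPM in control mouse 2, and Serpinf1 was 113.1 CPM in SB525334 mouse 2. Serpina6 at 0.0552 CPM in combination mouse 2, Serpina7 at 0.0471 CPM in combination mouse 4 and Serpind1 at 0.103 CPM in combination mouse 1 rest on 1 or 2 counts.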

How the results depend on the processing

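The number of called members stayed within 1.5 times of the reported one under every alternative run for SB525334 against control (17 to 19), the combination against control (17 to 23), against KN046 (22 to 28) and against SB525334 (14 to 18), and the interaction (13 to 19). Within the combination against control, the lower members stayed at 17 to 19, but the 3 higher ones ranged from 0 to 4, with 0 for merged control pairs and without control mouse 1, control mouse 2 or combination mouse 3, and 1 for library size alone and for no filter on low counts. The total went outside 1.5 times for KN046 against control alone, where the reported 5 became 3 with library size alone or with the mice of the comparison alone, 0 by edgeR with the control pairs merged, and 1 to 9 with 1 mouse left out, 9 without KN046 mouse 2 and 1 without KN046 mouse 1. At an unadjusted p under 0.05 by edgeR, 14 of 32 tested members differed with KN046, beside 3214 of all 13968 genes tested. DESeq2 called 6 members. Merging the control pairs, which leaves fewer values, ended 17 of 104 calls of single members, DESeq2 0 and the replicate block 2, those of Serpina3f with KN046 and Serpinb9 in the combination. Replicate numbers did not pair the mice: deviations of same-numbered mice had a median correlation of 0.026 (-0.37 to 0.41, 24 pairs), and with the replicate block the KN046 count was 4 and the SB525334 count 18.

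Relative to Alb in place of the hepatocyte list, 6 log2 ratios to control changed sign: in the combination to 0.062 for the summed Serpina1 copies, 0.62 for Serpina3k, 1.59 for Serpinc1, 3.08 for Serpind1 and 2.09 for Serpinf2, and with SB525334 to 0.16 for Serpind1. Without Arg1 in the list, an alternative chosen after seeing the data, the combination values were 0.18, 0.73, 1.71, 3.19 and 2.21 for the same 5. With a pseudocount of 0.05 in place of 0.5 CPM, also chosen after seeing the data, the combination values relative to the list moved from -1.57 to -2.59 for Serpinc1, from -0.09 to -2.39 for Serpind1 and from -1.07 to -2.85 for Serpinf2. With that pseudocount and Alb together they were 0.64, 0.84 and 0.38 for these 3, and -0.37 for the Serpina1 copies, -0.0034 for Serpina3k and, with SB525334, -0.080 for Serpind1. The reference and the pseudocount both changed the sign or size of these values. Depth limits the combination values of members with 0 to 3 counts.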
